A study of Mus musculus with 26 samples.

Results

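CTCF motif peaks were taken as peaks of the merged CTCF M-ChIP replicates that hold at least 1 match to the 19-base CTCF motif MA0139.1, and a peak was called CpG-free when none of its matches holds a CpG dinucleotide. Of 38881 merged CTCF peaks, 35381 held a match, and 19376 of these (54.8%, 95% Wilson interval 54.2% to 55.3%) were CpG-free. The other 16005 motif peaks were called CpG-holding, and 612 of them have a best match without a CpG beside another match that holds one. Each peak is represented by its match of highest FIMO score, the log-odds fit of the bases to the motif, and 85.5% of the CpG-free and 76.5% of the CpG-holding peaks had 1 match only.

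All libraries came from KH2 mouse embryonic stem cells, grown on irradiated feeder cells with LIF and separated from the feeders by pre-plating. In CTCF M-ChIP (2 libraries), chromatin bound by CTCF was tagged with Tn5 transposase that carries methylated adaptors and was then bisulfite converted, and M-ATAC (4 libraries) did the same with accessible chromatin of nuclei. The controls were unconverted aliquots of both preparations (CTCF-M-ChIP-NC and M-ATAC-NC, 2 libraries each), CTCF ChIP and ATAC made with Nextera transposase (2 libraries each), and RNA-seq (2 libraries, deposited as 1 merged table). The labels do not say that the replicates came from separate cultures, so p-values measure only the spread between these libraries, which may be technical. The single libraries held 22261 to 49633 CTCF peak regions and 24113 to 32999 accessibility peak regions, and the peak lists do not give the depth in reads. All 8 embryonic stem cell markers were expressed, from 112 TPM for Sall4 to 5394 TPM for Dppa5a, while 8 genes of fibroblast feeders lay between 0.08 TPM for Lum and 48.7 TPM for Col1a1.

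CTCF is a zinc finger protein that binds insulators and, together with the ring-shaped cohesin complex, anchors chromatin loops. Its fingers read a long motif, and cytosine methylation within that motif can weaken binding at some sites. Methylation in mammalian DNA falls mostly on CpG dinucleotides, so a motif without one offers the enzymes of CpG methylation no target inside the bases that CTCF reads.

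The motif has CpG positions of particular interest at C2 (bases 5 and 6) and C12 (bases 15 and 16), and the members were shown with bases 15 and 16 in capitals, counted from the 5′ end of the motif. The CpG-free match of highest score and the CpG-holding match of highest score are given first, as the best fits to the motif in either class.
Highest CpG-free score: tggccaccagggggCAcca
Highest CpG-holding score: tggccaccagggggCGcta
The first lies at chr4:137730295-137730313 (mm10, plus strand), in no gene and 2093 bases from a transcription start of Rap1gap, and scored 26.8. The second lies at chr9:20831181-20831199 (minus strand), in intergenic sequence 12687 bases from the start of Rdh8, and scored 27.5. The capitals show CA at C12 in the first and CG in the second.

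The next 4 distinct CpG-free sequences by score are shown because, with the first, they are the strongest fits to the motif among the members.
Number 2: tggccaccagggggCActg
Number 3: tggccaccagggggCAgca
Number 4: tggccactagggggCActa
Number 5: tggccactagggggCAcca
They lie in an intron of Sec22c at chr9:121697925-121697943 (plus strand), in intergenic sequence near Pou2f2 at chr7:25187851-25187869 (minus strand), in an exon at the start of Ccdc13 at chr9:121831111-121831129 (plus strand), and in an intron within 3 kb of a start of Olfm2 at chr9:20744118-20744136 (minus strand). Their scores ran from 26.1 to 26.5. Every one carries CA at C12.

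Most CpG-free motifs occurred at 1 place only, but a minority recurred word for word across the genome. Among 13240 distinct best sequences 11741 were seen in 1 peak, whereas 97 sequences occurred in at least 10 CpG-free peaks and together made up 3702 of them. That is 19.1% of the CpG-free peaks, and the sequences that recur to the same extent made up 11.5% of the CpG-holding ones. The 5 sequences found in most CpG-free peaks are shown because all of them share 1 core.
Found in 577 peaks: aggccagaagagggCAtca
Found in 377 peaks: aggccagaagagggCAcca
Found in 158 peaks: atgccagaagagggCAtca
Found in 140 peaks: aggccagaagagggCActg
Found in 113 peaks: acaccagaagagggCAtca
Each was found on all 20 chromosomes analysed (the autosomes and X). The strongest example of the first lies in an intron at chr7:90229084-90229102 (plus strand) with a merged fold enrichment of 22.6, and that of the second in an intron of Nrd1 at chr4:109036513-109036531 (minus strand) with a fold of 30.1. Every copy of these 5 sequences was soft-masked, that is, written in lower case in the reference genome, which marks interspersed and simple repeats.

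The 5 recurrent motifs were not bound alike. The median fold enrichment over the local background, as the peak caller gave it for the merged CTCF peaks, was 9.83 (95% order-statistic interval 9.36 to 10.53) for the first and 9.92 (9.57 to 10.50) for the second. It was 10.33 (9.48 to 11.75) for the fourth, so these 3 overlap in their intervals. The third sequence had a median of 7.93 (7.21 to 8.44), and the fifth had 5.76 (5.26 to 6.18). The last 2 lie below the others and do not overlap each other in interval. The CTCF-M-ChIP replicates found 33.6% and 38.9% of the peaks with the fifth sequence, and 84.7% and 70.9% of those with the first. Their FIMO scores were 16.4, 20.4, 14.95, 20.1 and 13.9 in the order listed.

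Counterparts with CG at C12 and otherwise the same bases existed for all 5. The counterpart of the first was found in 203 peaks with a median fold of 9.39 (8.38 to 10.20), within the interval of the CpG-free sequence. The counterpart of the second was found in 140 peaks with 12.13 (11.29 to 12.85), above the CpG-free sequence.
Counterpart of the first: aggccagaagagggCGtca
Counterpart of the second: aggccagaagagggCGcca
For the other 3, the counterparts had medians of 8.89 (5.87 to 12.25), 11.12 (10.17 to 12.47) and 5.94 (5.76 to 6.48), and each interval overlaps that of its CpG-free sequence. Few of these repeated motifs overlapped a called peak of the merged M-ATAC replicates. The shares were 2.43% of the first, 3.98% of the second and 5.31% of the fifth, against 21.9% of all motif peaks.

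The core of bases 4 to 14 that these sequences share, ccagaagaggg, was the most frequent core of the CpG-free peaks. It was carried by 4624 of them (23.9%, Wilson interval 23.3% to 24.5%) and by 2649 of the CpG-holding peaks (16.6%, 15.98% to 17.1%). Of the CpG-free peaks with this core 98.96% were written wholly in lower case in the reference, against 13.96% of those with another core. The shared core, the recurrent counterparts and the grouping by the bases at C12 were chosen after values had been seen.

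At C12, CA stood in 13392 of the CpG-free best matches (69.1%), AG in 2170, TG in 1785, CT in 738 and CC in 432. At C2, CA stood in 90.3% and CT in 8.07%. In the CpG-holding peaks CG stood at C12 in 76.7% of the best matches and at C2 in 12.1%. CA and TG are what a CpG becomes when a methylated cytosine of either strand is deaminated to thymine, which is given here as background. Within the CpG-free class the median merged fold was 9.93 (9.84 to 10.04) with CA at C12, 9.68 (9.44 to 9.95) with TG and 9.51 (9.36 to 9.70) with AG. CT with 8.64 (8.24 to 9.05) and CC with 8.58 (8.03 to 8.92) lay below these 3, and their FIMO scores were lower too, with medians of 13.9 and 12.9 against 17.8 for CA. The score is a function of the bases, so this part of the pattern was given by the motif.

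CpG-free motifs fitted the matrix slightly less well than CpG-holding ones. The median FIMO score was 16.92 (16.82 to 17.02) against 17.33 (17.25 to 17.41), and this is a description, since the score is computed from the bases that set the classes. Best matches lay at the middle of the peak in either class, with 90.5% and 89.5% within 50 bases of a summit. The CpG-free peaks were narrower, with a median width of 248 bases against 265.

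Merged CTCF enrichment was lower at CpG-free motifs, and the difference was small next to the range within the class. The merged fold of the CpG-free peaks ran from 2.70 to 43.5, with 10% of them under 5.64 and 10% over 16.2. Their median was 9.70 (9.63 to 9.78) and that of the CpG-holding peaks 10.37 (10.28 to 10.45). The difference of -0.67 had the same direction on 18 of 20 chromosomes. The median −log10 q-value of the peak caller was 14.6 (14.5 to 14.8) against 16.99 (16.74 to 17.22). The merged list has no replicates, so no p-value is given for it.

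The lower enrichment was present at every level of motif score. In the lowest score quintile the median fold was 8.22 (8.06 to 8.39) for CpG-free and 8.99 for CpG-holding peaks, and in the highest it was 11.15 (10.94 to 11.38) and 11.81. In the quintiles between them the CpG-free median was 9.20, 9.83 and 10.49. A change of motif score across the quintiles thus went with a larger difference in fold than the presence of a CpG did. The direction also held at promoters (9.73 against 10.41), in introns (9.71 against 10.32) and between genes (9.66 against 10.43), while in exons the 474 CpG-free peaks had 9.84 (9.46 to 10.22) and the CpG-holding ones 10.04, which lies within that interval.

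**Figure D1:**
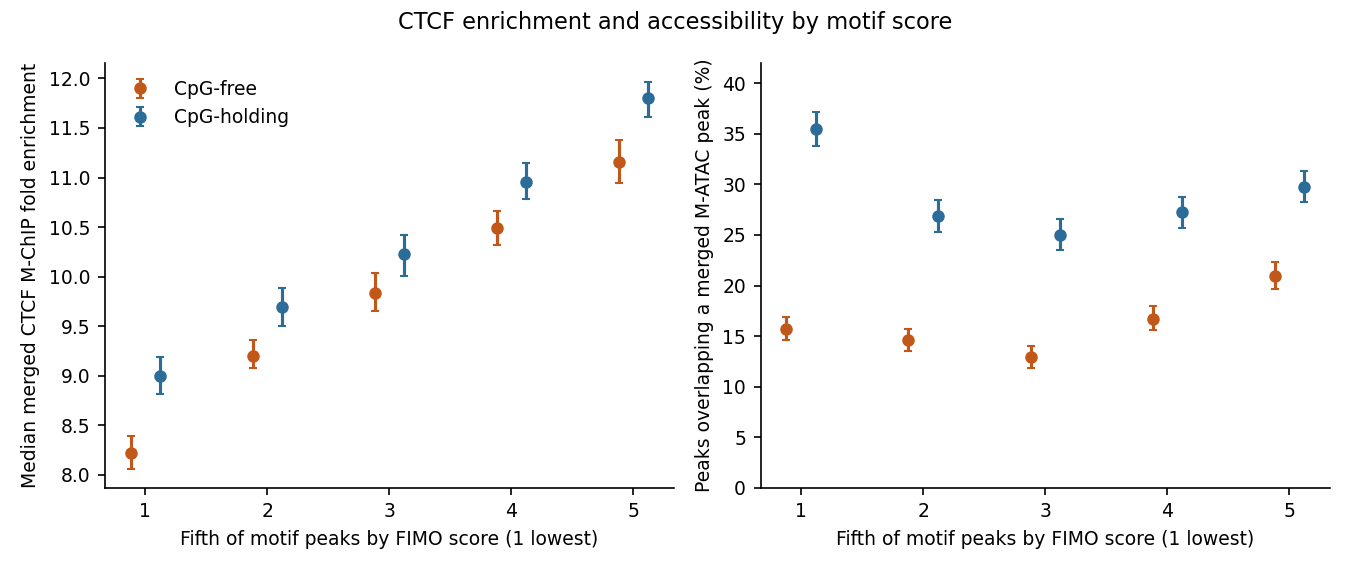
Median merged CTCF M-ChIP fold enrichment (left) and percent of peaks overlapping a merged M-ATAC peak (right) by quintile of FIMO score, for CpG-free and CpG-holding motif peaks, with 95% order-statistic (left) and Wilson (right) intervals. The CpG-free medians rise from 8.22 to 11.15 and stay below the CpG-holding ones in each quintile, and the CpG-free overlap stays between 12.9% and 20.96%.

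Peaks called in the single libraries were compared next, to set the class difference against the spread between libraries. CpG-free motif peaks were found less often than CpG-holding ones in all 6 CTCF libraries. CTCF-M-ChIP 1 found 82.9% of the CpG-free and 87.4% of the CpG-holding peaks (84.9% of all motif peaks), and CTCF-M-ChIP 2 found 71.8% and 76.1% (73.7% of all). These replicates also made up the merged list, so their shares are not independent of it. CTCF-ChIP 1 found 90.5% and 94.6% (92.4% of all), and CTCF-ChIP 2 found 97.5% and 98.8% (98.1% of all). The unconverted aliquots differed from each other by more than the classes did. CTCF-M-ChIP-NC 1 found 52.6% and 63.2% (57.4% of all), and CTCF-M-ChIP-NC 2 found 72.6% and 80.5% (76.1% of all).

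Over the CTCF-M-ChIP and CTCF-ChIP libraries, the share found differed by -3.51 ± 1.52 percentage points (SD, n = 4) between CpG-free and CpG-holding motifs, with the same direction in 4 of 4 libraries (exact sign-flip permutation test, two-sided, p = 0.125, adjusted p = 0.208 over 5 tests by Benjamini-Hochberg). The fold of the peaks that were found differed by -0.086 ± 0.026 on the log2 scale (SD, n = 4), again in 4 of 4 libraries (exact test, p = 0.125, adjusted p = 0.208). With 4 libraries 0.125 is the smallest p the test can give, so neither difference could reach 0.05. The class difference in the share found was -4.37 ± 0.09 percentage points (SD, n = 2) with CTCF-M-ChIP, -9.24 ± 1.92 with CTCF-M-ChIP-NC and -2.65 ± 2.00 with CTCF-ChIP. The converted libraries differed by 4.87 points from the unconverted aliquots and by -1.72 points from CTCF-ChIP. Each had p = 0.333 in an exact permutation test, the smallest p that 2 against 2 libraries allow. The motif peaks were chosen from the merged CTCF-M-ChIP list, which favours their detection in the libraries that made it. The share of all motif peaks found also ran from 57.4% in CTCF-M-ChIP-NC 1 to 98.1% in CTCF-ChIP 2, which leaves unlike room for a gap. These contrasts therefore cannot say how conversion bears on the classes.

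A CpG-free motif peak was found in all 6 CTCF libraries in 42.1% of cases and a CpG-holding one in 51.9%, against 46.5% of all motif peaks. In both CTCF-M-ChIP replicates these shares were 63.4% and 69.7%, against 66.3% of all. At the other end, 174 CpG-free peaks (0.898%) appeared in the merged list alone. These had a median score of 13.96 and were soft-masked in 63.2% of cases. The 8149 found in all 6 libraries had a median score of 17.95 and were soft-masked in 29.9%. The CpG-holding class showed the same pattern. Its 69 peaks in the merged list alone (0.431%) had a median score of 14.6 and were soft-masked in 49.3%. For its 8299 peaks found in all 6 libraries the values were 18.3 and 16.5%.

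**Figure D2:**
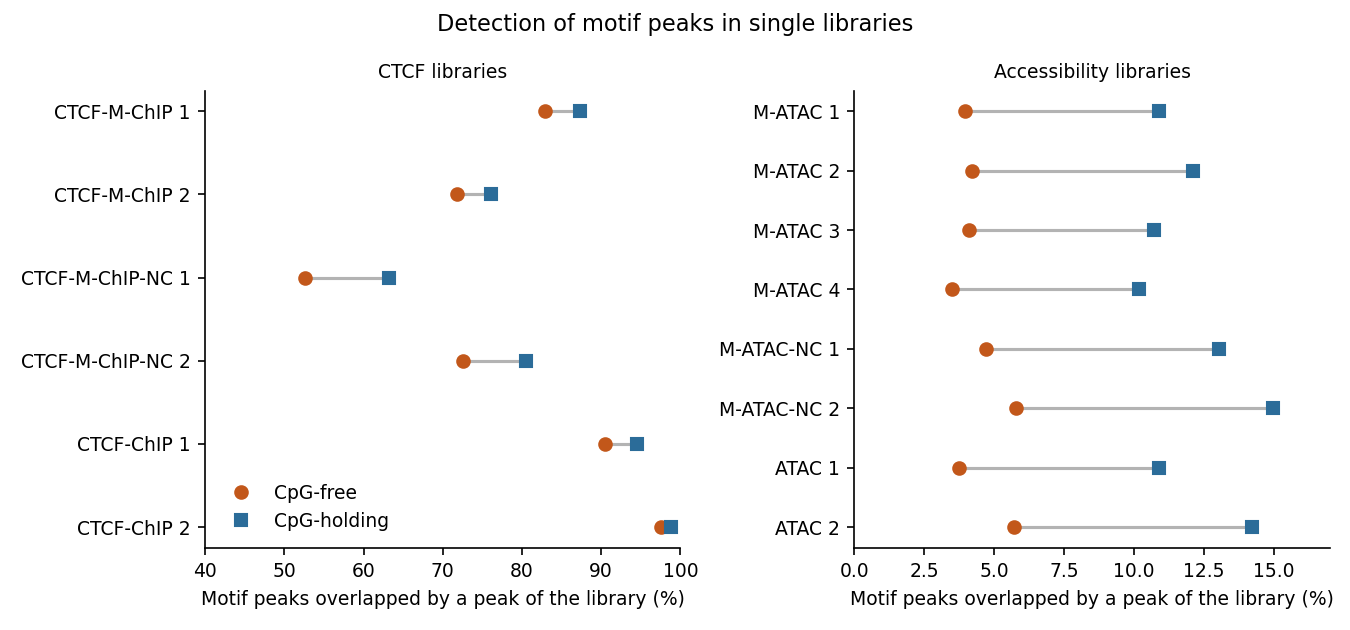
Percent of CpG-free (circles) and CpG-holding (squares) motif peaks overlapped by a peak of each library, CTCF libraries on the left (axis from 40%) and accessibility libraries on the right (axis from 0%). The circle lies left of the square in all 14 libraries, and the difference, CpG-free minus CpG-holding, is -1.24 to -10.6 percentage points in the CTCF libraries and -6.60 to -9.17 in the accessibility libraries.

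Fewer CpG-free than CpG-holding motif peaks overlapped a called accessibility peak. Accessible means such an overlap here, and a site without a called peak need not be closed. Of the CpG-free peaks 3116 (16.1%, Wilson interval 15.6% to 16.6%) overlapped a peak of the merged M-ATAC replicates, against 28.8% (28.2% to 29.6%) of the CpG-holding ones. The share was lower at CpG-free motifs on 20 of 20 chromosomes. Where a peak overlapped, the merged M-ATAC fold was 6.99 (6.80 to 7.07) at CpG-free and 7.49 (7.37 to 7.58) at CpG-holding motifs.

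Single accessibility libraries found far fewer of these sites than the merged list. M-ATAC 1 to 4 found 3.94%, 4.19%, 4.10% and 3.49% of the CpG-free peaks (all motif peaks: 7.09%, 7.77%, 7.08% and 6.51%) and 10.9%, 12.1%, 10.7% and 10.2% of the CpG-holding ones. ATAC 1 and 2 found 3.72% and 5.71% of the CpG-free (all motif peaks: 6.96% and 9.56%) and 10.9% and 14.2% of the CpG-holding peaks. M-ATAC-NC 1 and 2 found 4.72% and 5.79% (all motif peaks: 8.49% and 9.93%) against 13.1% and 15.0%. The highest CpG-free share of the 8 libraries lay below the lowest CpG-holding share. Over M-ATAC and ATAC the share differed by -7.31 ± 0.75 percentage points (SD, n = 6) and was lower at CpG-free motifs in 6 of 6 libraries, with p = 0.0312 in an exact sign-flip permutation test, the smallest p that 6 libraries allow. After adjustment over 5 tests it was 0.156, and the difference did not pass the correction. With these numbers of libraries no lower adjusted value was possible, so the correction could not be passed.

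Of the CpG-free peaks 86.8% (86.3% to 87.3%) were found in none of the 8 accessibility libraries, against 74.2% of the CpG-holding and 81.1% of all motif peaks. Only 0.939% were found in all 8, against 4.42% of the CpG-holding and 2.51% of all motif peaks. The CpG-free peaks in accessible chromatin also differed from the rest of their class. Those that overlapped a merged M-ATAC peak had a median CTCF fold of 11.5 (11.3 to 11.6) and were soft-masked in 12.3% of cases, and the other 16260 had 9.42 (9.36 to 9.51) and 38.5%. The median distance to a transcription start was 6103 bases for the first and 9135 for the second.

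The surroundings of the motif were poorer in CpG as well. In the 100 bases on either side the CpG-free class had a median of 2 CpGs and a GC content of 44.5%, against 3 CpGs and 48.0% in the CpG-holding class. No CpG at all stood there in 21.7% (21.1% to 22.3%) of the CpG-free and 10.8% of the CpG-holding peaks. At least 10 stood there in 0.831% and 10.6%.

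Peaks with a like number of flanking CpGs were then set side by side, and the class gap in accessibility varied with that number. With none, 7.66% (6.89% to 8.50%) of the CpG-free and 9.19% of the CpG-holding peaks overlapped a merged M-ATAC peak, and with 1 the shares were 11.3% (10.4% to 12.1%) and 11.6%. With 2 they were 15.5% (14.4% to 16.6%) and 15.5%. The CpG-holding share thus lay within the interval of the CpG-free share at 1 and 2 flanking CpGs. With none it lay above that interval, but its own interval (7.92% to 10.6%) overlapped it. In the groups of 3 or more flanking CpGs the CpG-holding share was higher and the intervals did not overlap. The largest gap was at 10 or more, where 69.6% (62.1% to 76.1%) of 161 CpG-free and 83.3% of 1702 CpG-holding peaks overlapped. This gap was no smaller than that over all peaks. The group has no upper limit and holds 0.831% of the CpG-free and 10.6% of the CpG-holding peaks. The classes may thus differ in CpG number within it. Within the CpG-free class itself the share therefore went from 7.66% to 69.6% as the CpGs around the motif increased.

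**Figure D3:**
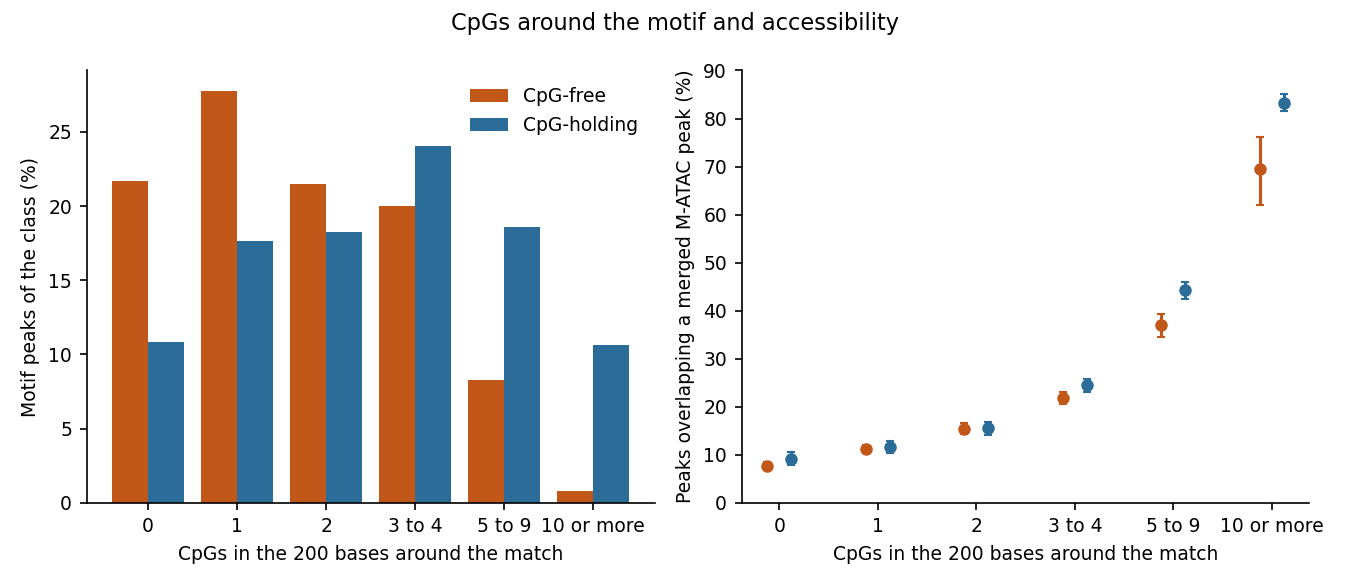
Percent of each class by the number of CpGs in the 100 bases on either side of the match (left), and percent of those peaks overlapping a merged M-ATAC peak with Wilson 95% intervals (right). CpG-free peaks are shifted to few flanking CpGs, and at 0, 1 and 2 flanking CpGs the intervals of the classes overlap in accessibility.

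The single libraries were compared in the same groups. With 1 flanking CpG, the share found by M-ATAC and ATAC differed by -0.18 ± 0.33 percentage points (SD, n = 6) between CpG-free and CpG-holding peaks and was lower in 4 of 6 libraries. With 10 or more it differed by -13.2 ± 2.7 points and was lower in 6 of 6, against -7.31 points over all motif peaks. Whether these gaps differ from each other was not tested. The log2 fold of the CTCF-M-ChIP and CTCF-ChIP libraries was lower at CpG-free motifs in 4 of 4 libraries with 0, 1, 2, 3 to 4 and 5 to 9 flanking CpGs, and in 3 of 4 with 10 or more.

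Soft-masking divided the sites in a like manner. The best match was wholly soft-masked in 34.2% (33.6% to 34.9%) of the CpG-free and 20.9% of the CpG-holding peaks, against 28.2% of all motif peaks. Among these, 5.79% (5.25% to 6.37%) of the CpG-free and 5.56% of the CpG-holding peaks overlapped a merged M-ATAC peak, and the median CTCF fold was 9.44 (9.31 to 9.57) and 9.54. Neither value separated the classes beyond its interval. Outside soft-masked sequence the shares were 21.4% (20.7% to 22.2%) and 35.0%, and the folds 9.84 (9.74 to 9.93) and 10.59. In single libraries the accessible share of soft-masked peaks differed by -0.06 ± 0.25 points (SD, n = 6), and that of the others by -8.51 ± 0.83 points. The log2 fold of the CTCF-M-ChIP and CTCF-ChIP libraries differed by -0.03 in soft-masked peaks and by -0.09 in the others. It was lower at CpG-free motifs in 4 of 4 libraries in either group.

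The repeated core was looked at in the same way. Of the CpG-free peaks that carry it 4.61% overlapped a merged M-ATAC peak, and of the CpG-holding peaks that carry it also 4.61%. In the single libraries the accessible share of peaks with the core differed by -0.30 ± 0.21 points (SD, n = 6) and was lower at CpG-free motifs in 6 of 6 libraries. The median merged CTCF folds of peaks with the core were 9.41 and 9.53. In the CTCF-M-ChIP and CTCF-ChIP libraries their log2 fold differed by -0.02 and was lower at CpG-free motifs in 4 of 4. With any other core the shares were 19.7% and 33.7% and the folds 9.79 and 10.53. How far repeats, flanking CpGs and width contribute to the class difference beyond these values was not tested.

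Motifs that share their other 17 bases and differ only at C12 allowed a closer comparison, which was chosen after values had been seen. CA and CG occurred at C12 in 924 such contexts, with 5006 CpG-free and 3173 CpG-holding peaks. The weighted mean fold was 9.71 with CA and 10.2 with CG, a difference of -0.07 on the log2 scale, and CA was lower in 500 contexts and higher in 424. For TG against CG there were 360 contexts with a difference of -0.14, TG being lower in 227 and higher in 133. Overlap with a merged M-ATAC peak was close in value here, at 7.68% with CA and 8.23% with CG and at 8.47% with TG and 8.91% with CG. These shares lie below the 16.1% of all CpG-free and the 28.8% of all CpG-holding peaks. The most frequent recurrent sequences, all soft-masked, are among the CA contexts. The matched peaks are thus not typical of their classes, and their gap need not hold for other motif peaks. The FIMO score differed by -0.74 with CA and by -3.74 with TG in the median context, so the fit to the matrix changed along with the CpG.

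In the single libraries the share of matched peaks found differed between CA and CG at C12 by -3.36 and -5.89 percentage points in CTCF-M-ChIP 1 and 2 and by -4.73 and -1.54 in CTCF-ChIP 1 and 2. The log2 fold difference in these libraries was -0.05, -0.04, -0.09 and -0.07. In CTCF-M-ChIP-NC 1 and 2 the share was different by -7.996 and -8.035 points, while the log2 fold differed by less than 0.01 in the first and by -0.06 in the second.

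**Figure D4:**
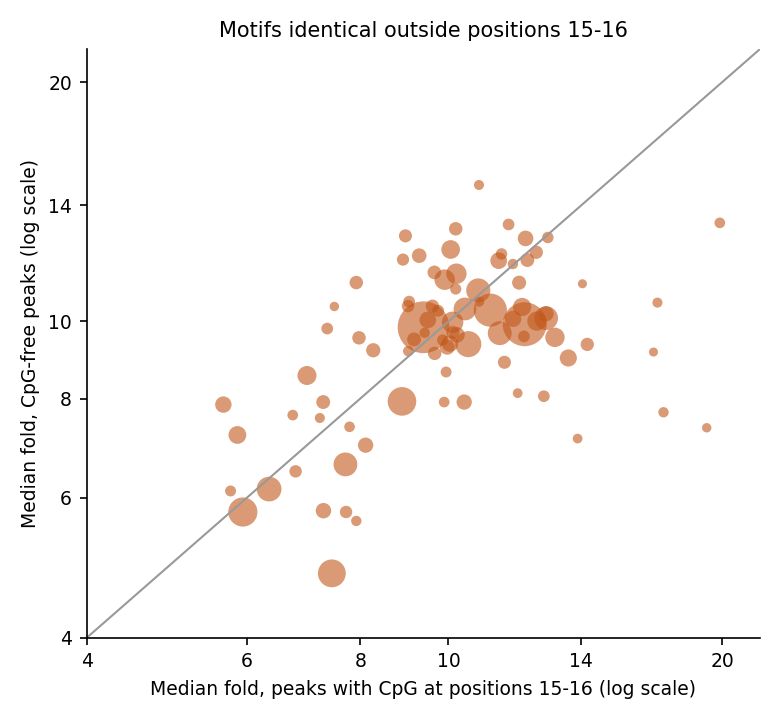
Each point is 1 of 87 contexts in which motifs identical outside positions 15 and 16 had at least 5 peaks with CA and 5 with CG, with the median merged CTCF fold of the CG peaks on the x axis and of the CpG-free (CA) peaks on the y axis (log scales), point area increasing with the number of peaks. Points scatter on either side of the line of equality, and 50 of 87 lie below it.

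CpG-free motifs lay further from genes' starts. Within 3 kb of a transcription start, the distance taken for a promoter, were 24.5% (23.9% to 25.1%) of the CpG-free and 33.2% (32.4% to 33.9%) of the CpG-holding best matches, against 28.4% of all motif peaks. Within 1 kb the shares were 9.14% and 18.5%. The gap within 3 kb varied with the number of flanking CpGs. With none the shares were 21.5% and 21.4%, with 1 they were 22.2% and 22.8%, and with 2 they were 23.6% and 25.4%. With 5 to 9 they were 33.5% and 37.6%, and with 10 or more 59.6% and 79.1%. Among soft-masked peaks they were 24.2% and 24.7%, and among the others 24.7% and 35.4%. The CpG-free class had more matches in introns (36.9% against 29.5%) and slightly more between genes (36.1% against 33.6%), and fewer in coding sequence (1.20% against 3.86%) and untranslated regions (2.39% against 4.27%). The median distance to a start was 8550 bases (8348 to 8780) against 6472.

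The accessibility gap was larger at promoters than in distal peaks. Of the CpG-free promoter peaks 22.2% (21.03% to 23.40%) overlapped a merged M-ATAC peak, against 43.6% of the CpG-holding ones, and in the single libraries the difference was -15.98 ± 1.32 percentage points (SD, n = 6). In distal peaks it was -2.62 ± 0.43 points, lower in 6 of 6 libraries, and the ranges over libraries of these 2 gaps do not overlap, though their difference was not tested. The share of CpG-free peaks found as accessible was 6.44% ± 1.10 (SD, n = 6) at promoters and 3.46% ± 0.70 in distal peaks. The log2 difference in CTCF fold between the classes was -0.08 both at promoters and in distal peaks.

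Genes were then grouped by the class of the motif within 3 kb of a start. The 3735 genes with CpG-free motifs only and a TPM value had a median of 0.64 TPM (0.47 to 0.89), the 4520 with CpG-holding motifs only had 1.59 TPM (1.22 to 1.97), and the 871 with both had 8.10 TPM (6.46 to 9.66). At least 1 TPM was reached by 47.7%, 53.1% and 72.4%, and over all 47606 genes with a TPM value by 28.2%, with a median of 0 TPM. With promoters of 1 kb the first 2 medians were 0.92 TPM (0.58 to 1.39) and 4.41 TPM (3.60 to 5.29). Among genes of at least 1 TPM the order of the first 2 groups turned, with medians of 19.3 TPM (17.97 to 20.82) and 15.96 TPM (14.86 to 17.03). The merged TPM table has no replicates, and the order of the groups therefore depends on whether silent genes are counted.

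Among the genes of highest TPM with a CpG-free motif within 1 kb of a start were Gapdh and Eno1, which encode glycolytic enzymes, and Rpl38 and Rps4x, which encode ribosomal proteins.
Gapdh: tagccaccagagggCAcca
Eno1: ccaccacaagatggCAgca
Rps4x: ccaccagcagatggCAaga
The Gapdh motif (chr6:125162148-125162166, plus strand, in an exon 370 bases from a start) had a merged CTCF fold of 11.8 at 6547 TPM, and was found with folds of 7.13 in CTCF-M-ChIP 2, 11.1 in CTCF-M-ChIP-NC 2, 7.30 in CTCF-ChIP 1 and 11.8 in CTCF-ChIP 2. CTCF-M-ChIP 1 and CTCF-M-ChIP-NC 1 listed no peak there, and no accessibility library did. The Eno1 motif (chr4:150248208-150248226, minus strand, in an exon 652 bases from a start) was found in all 6 CTCF libraries, with folds of 12.4 and 12.1 in CTCF-M-ChIP, 6.65 and 8.66 in CTCF-M-ChIP-NC, and 16.2 and 16.8 in CTCF-ChIP. Here the unconverted aliquots were lowest and did not overlap the other libraries. The Rps4x motif (chrX:102189432-102189450, minus strand, 47 bases from a start) had 12 CpGs in its flanks although none stood in the motif, with folds of 4.742 and 4.199 in CTCF-M-ChIP, 7.35 and 5.58 in CTCF-M-ChIP-NC, and 12.1 and 18.2 in CTCF-ChIP. The Rpl38 peak had a merged fold of 9.81.

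The 5 CpG-free peaks of highest merged fold were of mixed sequence. They are shown as the most enriched members, and none of them is among the 5 of highest score.
Fold 43.5: ccaccactagatggTGcta
Fold 30.4: aggccagaagagggCAgaa
Fold 29.4: tgaccaccagaggaCActg
Fold 29.1: tggccactaggggtCAgtg
The remaining one, with a fold of 30.1, is the Nrd1 copy of the second recurrent sequence. The first lies in an intron of Gm2619 at chr1:85323360-85323378 (minus strand) and was found with folds of 37.2 and 39.1 in CTCF-M-ChIP, 29.3 and 34.2 in CTCF-M-ChIP-NC and 45.1 and 45.8 in CTCF-ChIP. CTCF-ChIP was highest there and the unconverted aliquots lowest, without overlap of the groups. The others lie 580 bases from a start of Gm6049 (chr13:42473348-42473366, minus strand), in intergenic sequence (chr13:9847004-9847022, minus strand) and in intergenic sequence with 8 flanking CpGs (chr11:89100675-89100693, plus strand). The last of these was the only one of the 5 found in all 8 accessibility libraries, with folds from 6.73 in ATAC 1 to 11.6 in M-ATAC-NC 2. Scores of these 5 ran from 18.0 to 21.4, above the CpG-free median of 16.92 and under the highest score of 26.8.

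Gene lists showed where CpG-free motifs were scarce. A peak was assigned to a gene when its match lay in the gene or within 10 kb of it, and 54.8% of all motif peaks are CpG-free. At the Hox clusters, arrays of homeobox genes that pattern the body axis, 1 of 17 motif peaks was CpG-free (5.88%, Wilson interval 1.05% to 27.0%). At the clustered protocadherins, whose alternative promoters give neurons their surface identity and are chosen with the help of CTCF, 4 of 42 were (9.52%, 3.77% to 22.1%). Both intervals lie below the share over all motif peaks. No test was made on the lists, which were drawn up with earlier results of these data known.

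The 1 CpG-free Hox peak lies at chr6:52221805-52221823 (minus strand), 40 bases from a start of Hoxa7, and had a merged CTCF fold of 17.2, above the median of 10.9 of the 16 CpG-holding Hox peaks. It overlapped a merged M-ATAC peak of fold 5.98.
Hoxa7: attccaggagatggCAgtg
The 4 CpG-free protocadherin peaks lie in the beta and gamma clusters, near starts of Pcdhb10, Pcdhb14, Pcdhga7 and Pcdhga12, with merged CTCF folds of 9.34, 10.98, 12.02 and 12.70. All 4 overlapped a merged M-ATAC peak, against 18.4% of the 38 CpG-holding ones, whose median fold was 7.93. With 1 and 4 members these values are single observations.

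The other lists lay nearer to the share over all motif peaks. Near pluripotency genes 11 of 31 motif peaks were CpG-free (35.5%, 21.1% to 53.1%), near imprinted genes 11 of 28 (39.3%, 23.6% to 57.6%) and near genes of CTCF and cohesin 13 of 26 (interval 32.1% to 67.9%). The first of these intervals also lies below 54.8%. That reference was not matched for position. Within 3 kb of a start there were 4754 CpG-free and 5307 CpG-holding peaks, and in introns 7158 and 4719. Whether the lists differ from peaks at like positions was not tested. Of the pluripotency genes 8 of 20 had a CpG-free peak, among them Pou5f1, the Oct4 gene, with 2 peaks of fold 4.86 and 9.55. The first of these is a copy of the most frequent recurrent sequence, at chr17:35513410-35513428 (plus strand), 2868 bases from the nearest start, that of Gm19553. Fgf4, a growth factor gene that is active in embryonic stem cells, had the highest CpG-free fold of the list, 17.6.
Fgf4: cttccagcaggtggCAgtg
It lies at chr7:144846355-144846373 (plus strand), 1003 bases from a start, and overlapped a merged M-ATAC peak, as did 3 of the 11 CpG-free peaks and 5 of the 20 CpG-holding peaks of the list. Sox2 and Nanog, which specify the pluripotent state together with Pou5f1, had CpG-holding peaks only, 2 each.

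Near imprinted genes, which are expressed from 1 parental allele under the control of methylated regions, 8 of 24 genes had a CpG-free peak. The highest CpG-free folds there were 18.62 in an intron of Kcnq1 and 18.55 in an intron of Airn, the antisense transcript that silences Igf2r.
Kcnq1: agtccagaagagggTGcta
Airn: ataccacaagggggCActa
They lie at chr7:143114963-143114981 (plus strand) and chr17:12810659-12810677 (minus strand), and neither overlapped a merged M-ATAC peak. The median fold of the 11 CpG-free imprinted peaks was 10.4 and that of the 17 CpG-holding ones 7.99, and 9.09% and 41.2% were accessible. Near genes of CTCF and cohesin the medians were 12.4 and 12.6, with 15.4% and 53.8% accessible among 13 peaks of each class. Over all motif peaks 16.1% of the CpG-free and 28.8% of the CpG-holding ones were accessible. The shares of these 2 lists rest on few peaks, and whether they differ from those over all peaks was not tested. Stag1, a cohesin subunit, had CpG-free peaks of fold 15.3 and 11.4 in its introns, and Ctcfl, the germline paralogue of CTCF, had 3 between 14.2 and 15.1.

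**Figure D5:**
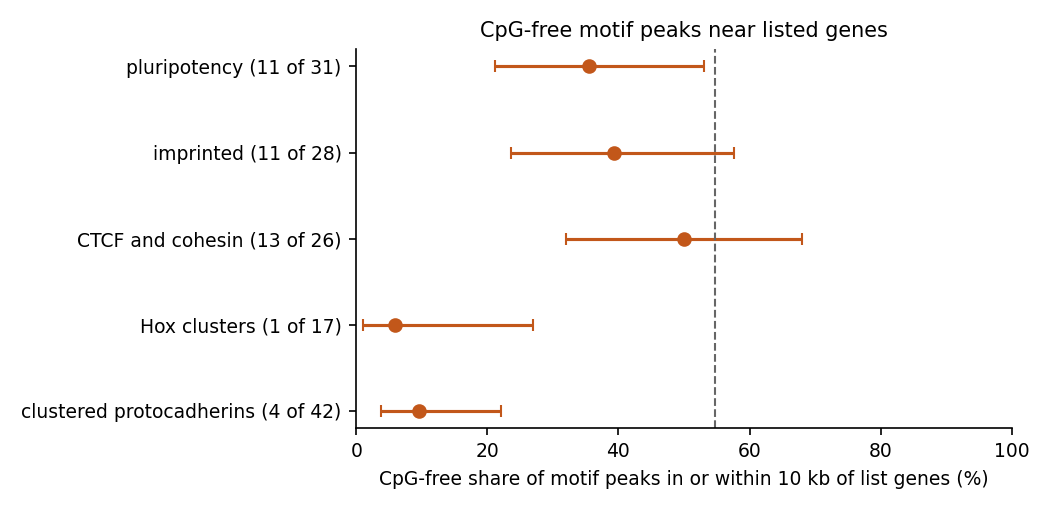
Percent of motif peaks in or within 10 kb of the listed genes that are CpG-free, with Wilson 95% intervals and the counts beside each list. The dashed line marks 54.8%, the share over all motif peaks, not matched for position. The intervals of the Hox clusters, clustered protocadherins and pluripotency genes lie below it.

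Methylation could be read beside, though not inside, the CpG-free motifs. In the merged CTCF M-ChIP table no cytosine was listed at bases 2 to 18 of these matches, which follows from the rule. At the edges a CpG can span the boundary of the match, and 445 best matches (2.30%) had one. Over all matches of these peaks, 364 edge cytosines with at least 5 reads had 572 methylated of 3811 reads (15.0%, Wilson interval 13.9% to 16.2%), with 22.5% (19.95% to 25.28%) at base 1 and 12.5% (11.4% to 13.8%) at base 19. In the CpG-holding peaks base 1 gave 8.91% (8.49% to 9.35%) and base 19 gave 13.07% (12.55% to 13.61%), though there the CpG may also lie inside the match. Base 19 was thus close in value between the classes, and base 1, with 95 cytosines in the CpG-free peaks, was not. Cytosines at C12 of the CpG-holding peaks gave 12.2% and those at C2 2.75%, over 229944 and 41668 reads.

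Cytosines of the M-ATAC peaks that overlap CpG-free motif peaks were more methylated than those at CpG-holding ones. Outside the motif matches, 20276 cytosines with at least 5 reads were methylated in 4.41% (4.33% to 4.49%) of 242047 reads near CpG-free motifs, and 103094 cytosines in 1.29% (1.27% to 1.31%) of 1310212 reads near CpG-holding ones. The direction was the same on 20 of 20 chromosomes. The cytosines came from whole M-ATAC peaks, in 2486 and 4186 regions, and pooling reads gives regions with many cytosines more weight. The values were not split by the number of flanking CpGs. Methylation under 20% was found at 87.03% of these cytosines near CpG-free and 96.6% near CpG-holding motifs, and over 80% at 0.261% and 0.0553%. In distal peaks alone the values were 8.36% (8.17% to 8.55%) and 4.51% (4.42% to 4.61%), and with at least 10 reads a cytosine they were 2.66% and 0.79% over all peaks, a difference of 1.87 points in place of 3.12. The intervals cover counting error only, since reads of 1 fragment and cytosines of 1 peak are not independent and the table has no replicates.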

How the data were processed

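M-ATAC, CTCF M-ChIP and their controls were measured in KH2 mESC. Per the labels and the study's methods, the authors trimmed reads (Trim Galore 0.4.4), aligned them to mm10 with Bismark 0.18.1 or bowtie2, filtered them with SAMtools 1.3, and called peaks with MACS2. The aligner of the unconverted aliquots is not given in the sources used here. The deposited peak lists give a fold ratio over the local background, a −log10 q-value and a score per summit, and a deposited list of motif matches in merged CTCF M-ChIP peaks carries the FIMO score and p-value of each. The authors' methylation tables of merged replicates give a count of methylated and of unmethylated reads and a percent per cytosine. Expression was deposited as TPM, the RNA-seq replicates having been merged, with an aligner not given in the sources used here. Peak lists carry no read depth, and the read totals that the study tabulates were not used here.

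The members and gene lists were chosen with earlier results of these data known. Of the plus-strand matches 8522 of 21527 are deposited with lower-case bases and none of the minus-strand matches are, so bases were set to capitals before CpGs were searched; all 43074 matches then equalled the reference (GRCm38.p6), and 25197 held no CpG. Peak regions were counted once, with the highest fold over summits. Overlap was at least 1 bp. GENCODE M21 gave transcription starts, 3 kb around which counted as promoter, and nearest genes. Soft-masked matches had all 19 bases in lower case in the reference. Libraries were compared by exact sign-flip and permutation tests, two-sided, checked on simulated data, as were the overlap search and the intervals. Intervals over peaks treat peaks as independent. KLF4 peak lists were not used here. Named peaks were the 5 of highest score, the 5 of highest fold, the 5 most frequent sequences, the 5 genes of highest TPM with a motif within 1 kb (of which 1 is not reported here), and peaks of the gene lists. Scripts used samtools 1.23.1, pyfaidx 0.9.0.4, pandas 2.3.3, matplotlib 3.10.9, numpy 2.4.6 and python 3.11.15. Alternatives changed the motif matches used, the class rule, the overlap, the −log10 q minimum, the read minimum, the promoter distance and the libraries included.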

Additional observations from a re-analysis of the deposited data

How the results depend on the processing

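Directions held under the alternatives for score, CTCF fold, accessibility and promoter share, and only that of TPM turned. With case kept as deposited, which was added after seeing the data and would misread lower-case bases, 21950 peaks had no capital CG, the fold difference was -0.80, M-ATAC overlap -17.7 and promoter share -10.5 percentage points. With motif p at most 1e-05, M-ATAC overlap differed by -10.4 and promoter share by -7.15 points, and with the class from the best match alone M-ATAC overlap by -11.4. The fold difference was -0.55 as a mean over score quintiles and -0.53 in CTCF peaks with −log10 q of at least 5. M-ATAC overlap differed by -11.9 points with that minimum on M-ATAC peaks and by -7.42 in distal peaks. Methylation in the overlapping M-ATAC peaks differed by 3.88 points with at least 1 read, 1.87 with at least 10 and 3.85 in distal peaks. TPM differed by -3.49 with promoters of 1 kb and by 3.34, the other way, among genes of at least 1 TPM.

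With unconverted aliquots included, the CTCF fold differed by -0.074 (log2) and the share found by -5.42 points, each with an exact sign-flip p of 0.0312 over 6 libraries, which counts aliquots of 1 preparation as separate libraries. Without single libraries the accessibility difference lay between -7.45 and -7.07 points with an exact permutation p of 0.0625, and with M-ATAC replicates 3 and 4 in place of all 4, beside ATAC, it was -7.24 (p = 0.125); these p-values are the smallest that 5 and 4 libraries allow. Without CTCF-ChIP replicate 1 or 2, the difference between CTCF-M-ChIP and CTCF-ChIP was -3.13 or -0.31 points. With a replicate block, pairing libraries by number, the differences remained 4.87 and -1.72 points by construction, with an exact sign-flip p of 0.5, the smallest it can give; whether the numbers pair the samples cannot be tested with 2.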
